A study of Bos taurus and Ovis aries and Capra hircus with 18 samples.

Results

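The calpains, their inhibitor calpastatin and the lysosomal cathepsins are the proteases most often tied to the tenderising of meat after slaughter, and 8 of their genes were followed here in adult muscle and brain of cattle, sheep and goat. The genes were the calpain large subunits CAPN1, CAPN2 and CAPN3, the calpain small subunit CAPNS1, the inhibitor CAST, and the cathepsins CTSB, CTSD and CTSL. They were listed by name for their tie to meat tenderness, with no threshold on their values. They make up 8 of the 13098 genes that could be paired across the 3 species. Cattle genes were named by position, and the sheep and goat partners were found by exon structure and gene order.

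Poly(A)-selected RNA of frozen tissue was sequenced in 6 groups of 3 libraries, 18 in all. The groups were cattle muscle, sheep muscle, goat muscle, cattle brain, sheep brain and goat brain, all labelled adult, with no treatment and no breed given in the labels used here. Which muscle and which brain region were sampled is not named, and nothing in the labels tells whether libraries A, B and C of a group came from separate animals. Every p-value below therefore measures only the spread between these libraries, which may be technical.

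Calpains are calcium-dependent cysteine proteases of the cytoplasm. CAPN1 and CAPN2 encode the large subunits of mu-calpain and m-calpain, each of which pairs with the small subunit CAPNS1, and calpastatin binds and blocks both enzymes when calcium is present. CAPN3 encodes a calpain of skeletal muscle that is anchored on the giant protein titin and is not held back by calpastatin, and its loss in humans causes a limb-girdle muscular dystrophy. Cathepsins B and L are cysteine proteases and cathepsin D an aspartic protease of the lysosome, where they break down proteins delivered by endocytosis and autophagy. In meat science a high calpastatin activity relative to mu-calpain is known to go with slow softening of the carcass.

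Libraries held 20730803 to 58514630 counts, with 17204 to 20221 genes at 1 count or more. Levels below are counts per 1000000 of the library total (CPM), with totals scaled by the trimmed mean of M values (TMM), and are given per kilobase of summed exons as CPM per kb. Markers matched the tissue labels: the summed level of 6 neuron markers was 1.76 to 4.47 CPM per kb in muscle libraries and 1214 to 2534 in brain libraries, and that of 5 skeletal muscle markers was 43792 to 122176 in muscle and 4.60 to 25.9 in brain. Sheep brain C and goat muscle C stood apart from the other libraries of their groups. Their mean Spearman correlations with their own group were 0.848 and 0.953, while the other libraries ran from 0.919 to 0.991. Over 9421 genes the deviations of these 2 libraries from their groups correlated with each other (r = 0.469) and with the log2 length of the gene's cattle locus (r = -0.464 in sheep brain C and r = -0.242 in goat muscle C). Where either library turned the direction of a member's tissue difference within a species or ended its call there, the value without it is given.

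All coordinates of cattle genes are on ARS-UCD1.2 and all 8 members lie on the plus strand there. CAPN1 (ENSBTAG00000010230) spans chr29:43400333-43427397 and CTSD (ENSBTAG00000007622) lies on the same chromosome at chr29:49712700-49722179. CAPN2 (ENSBTAG00000012778) spans chr16:27079890-27138327, CAPN3 (ENSBTAG00000008868) chr10:37711578-37766813 and CAPNS1 (ENSBTAG00000014872) chr18:46798751-46805845. CAST (ENSBTAG00000000874) covers chr7:96033978-96167151, the longest of the 8 loci. CTSB (ENSBTAG00000012442) and CTSL (ENSBTAG00000000720) share a chromosome, at chr8:7566095-7586862 and chr8:80974612-80980412. The values are sums over all annotated exons of a gene, so they do not separate its transcripts, coding parts or untranslated regions.

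The gene models themselves showed the kinship of the calpains. In cattle, 17 exon lengths of CAPN1 recurred in the same order in CAPN2 and 15 in CAPN3, and CAPN2 and CAPN3 shared 17. CAPNS1, which carries only the calcium-binding end of a calpain, shared 7 exon lengths in the same order with CAPN1 and with CAPN3. These were 58, 65, 69, 79, 117, 59 and 27 bases, and other exons may lie between them. The summed length of a gene's exons differed between species. The exons of CAST sum to 6086 bases in cattle, 2921 in sheep and 2846 in goat, and those of CTSD to 2043, 1508 and 5879 bases. Levels compared between species are therefore given per length and also without that correction.

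CAPN3 and CAST were the members that set muscle apart from brain. CAPN3 was some 179-fold and CAST 5.36-fold higher in muscle over the 3 species, and both were called in each species. CAPN1, CAPNS1, CTSB and CTSD were not called in any species or over all 3. CAPN2 was 1.56-fold higher in muscle, which passed the adjusted p but not the 2-fold minimum, and CTSL was called in goat alone. Calls required both a change of at least 2-fold and an adjusted p under 0.05 in edgeR's quasi-likelihood test, with the adjustment of Benjamini and Hochberg (BH). In bulk tissue, more cells of a type and more RNA per cell cannot be told apart.

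The calls of the 8 members stood on a background in which most genes differ between these tissues. Over the 3 species 53.8% of 12052 tested genes were called and 22.4% were called higher in muscle, against 2 of 8 members called, both higher. Within species, 2 of 8 members were called in cattle, both higher in muscle, where 59.3% of all tested genes were called and 25.3% were higher. In sheep, 2 of 8 were called as higher, beside 47.7% of all genes called and 19.1% higher. In goat, 3 of 8 were called as higher, beside 54.6% of all genes called and 23.2% higher. The members' median log2 fold, muscle over brain, was 0.21 over the 3 species, while the median over all tested genes was -0.10. Of all genes called over the 3 species, 41.6% were higher in muscle, a share that was 18.7% when libraries were scaled by their totals alone.

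**Figure D1:**
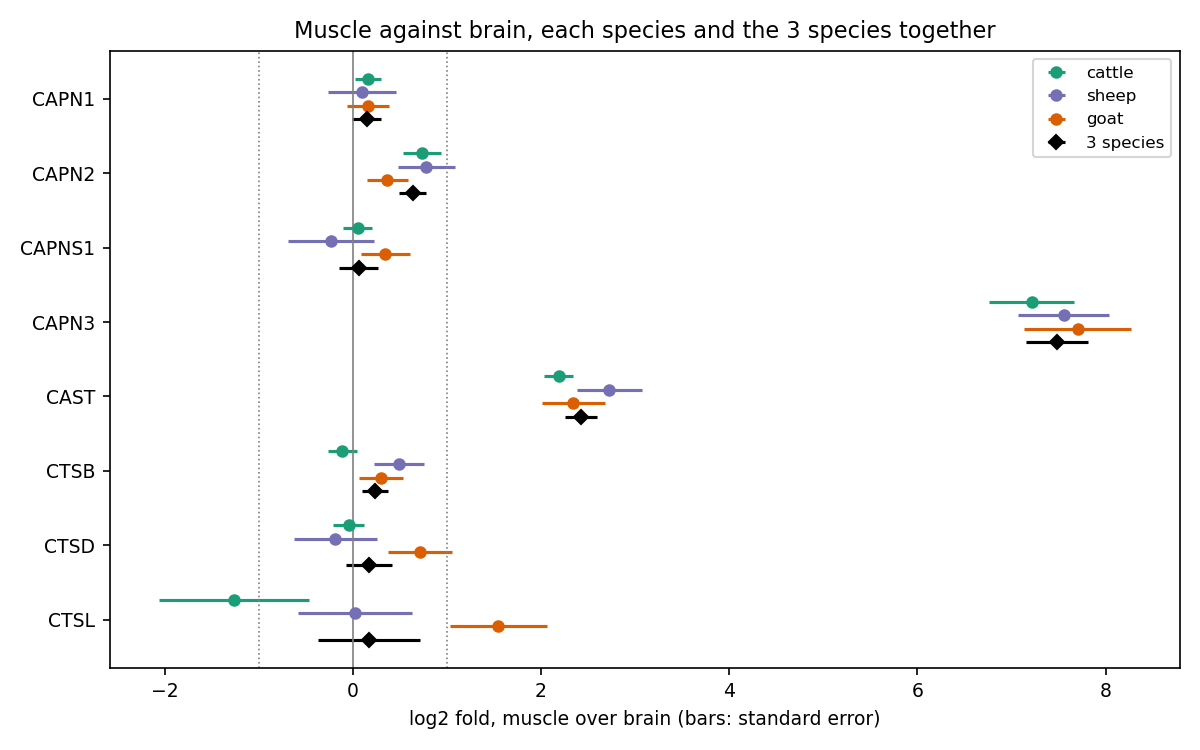
Log2 fold, muscle over brain, of the 8 members (x axis, log2 units) in cattle, sheep and goat and over the 3 species together. Points are edgeR estimates, bars are standard errors, the solid line marks no difference and dotted lines mark 2-fold. CAPN3 (7.48 over the 3 species) and CAST (2.42) lie to the right of the 2-fold line in each species, and CTSL is spread from -1.26 in cattle to 1.55 in goat.

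The choice of scaling bears on the 6 members near 0. With library totals alone in place of TMM, the median log2 fold of all genes over the 3 species was -0.89. The log2 folds of CAPN1 (-0.63), CAPN2 (-0.17), CAPNS1 (-0.71), CTSB (-0.57), CTSD (-0.61) and CTSL (-0.60) became negative, with none of them called. CAPN1, CAPNS1, CTSB and CTSD then passed the adjusted p as lower in muscle, under 2-fold (edgeR, adjusted p = 0.000261, 0.001265, 0.00119 and 0.0121). Whether levels of libraries overlap is judged below on TMM-scaled values. CAPN3 (6.71) and CAST (1.63) remained called as higher in muscle. In sheep alone, the same scaling made CAPNS1 a call in the other direction (log2 fold -1.10), beside a median of -1.11 for all sheep genes.

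CAPN1, the large subunit of mu-calpain, was not called between the tissues. In cattle it had 28.0, 32.4 and 28.2 CPM per kb in muscle libraries A, B and C and 24.9, 27.9 and 25.0 in brain libraries. In sheep the levels were 55.8, 49.1 and 45.6 CPM per kb in muscle and 35.5, 35.0 and 77.2 in brain, and in goat 34.0, 31.2 and 43.0 in muscle and 27.4, 36.3 and 28.7 in brain. The cattle groups do not overlap, by a narrow gap, while the sheep groups overlap through brain library C and the goat groups overlap through brain library B. The log2 fold, muscle over brain, was 0.16 ± 0.13 in cattle (SE; edgeR, adjusted p = 0.294), 0.10 ± 0.36 in sheep (adjusted p = 0.837) and 0.16 ± 0.22 in goat (adjusted p = 0.555). Without sheep brain C the sheep value was 0.54 ± 0.13 (edgeR, adjusted p = 0.00676), under 2-fold.

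CAPN2, the large subunit of m-calpain, stood 1.56-fold higher in muscle over the 3 species, with a log2 fold of 0.64 ± 0.14 (SE; edgeR, adjusted p = 0.000637) that turned to -0.17 with library totals alone. Cattle muscle had 25.1, 38.8 and 32.9 CPM per kb, against 19.5, 22.1 and 15.7 in cattle brain. Sheep muscle had 34.8, 29.2 and 34.8, against 22.6, 22.9 and 14.0 in sheep brain, and goat muscle had 25.8, 26.3 and 30.9, against 24.1, 20.6 and 17.2 in goat brain. On these TMM-scaled levels every muscle library lay above every brain library in each species. This did not hold by library totals alone. Cattle muscle A had 2164 of 40878387 counts, against 3104 of 45875420 in cattle brain B. Goat muscle A had 1896 of 23250777, against 3489 of 29496749 in goat brain A. Within species the adjusted p was 0.0093 in cattle, 0.0692 in sheep and 0.174 in goat (edgeR), so cattle alone passed it, still under 2-fold. Without sheep brain C the sheep value passed it as well (0.57 ± 0.13, adjusted p = 0.00582), also under 2-fold.

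CAPNS1, the small subunit that both large subunits need, was among the most abundant members and did not pass the test. It averaged 114 ± 8.86 CPM per kb in cattle muscle and 108 ± 11.5 in cattle brain (SD, n = 3 each), and 198 ± 48.9 in goat muscle and 148 ± 34.6 in goat brain. In sheep it had 130, 117 and 108 CPM per kb in muscle, against 92.8, 83.0 and 263 in brain. Sheep brain C alone placed the brain mean (146 ± 101) above the muscle mean (118 ± 10.8), since the other brain libraries lay below all muscle libraries. The sheep log2 fold was negative (-0.23) with all libraries and 0.46 ± 0.14 without sheep brain C (SE; edgeR, adjusted p = 0.0177), under 2-fold. The log2 fold over the 3 species was 0.06 ± 0.21 (SE; edgeR, adjusted p = 0.796), and -0.03 without goat muscle C.

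CAPN3, the muscle calpain, reached the highest mean level of the 8 members in the muscle of each species. Cattle muscle had 235, 331 and 246 CPM per kb, against 1.61, 0.963 and 2.79 in cattle brain. Sheep muscle had 419, 447 and 426, against 1.70, 1.67 and 3.87 in sheep brain, and goat muscle had 324, 240 and 199, against 1.22, 1.87 and 0.505 in goat brain. The lowest muscle library is thus far above the highest brain library, and the brain values rest on 55 to 541 counts per library. CAPN3 was above 98.4%, 98.9% and 97.9% of matched genes in cattle, sheep and goat muscle, and above 29.6%, 32.6% and 25.4% in their brains. Its log2 fold was 7.21 ± 0.45 in cattle, 7.55 ± 0.49 in sheep and 7.70 ± 0.57 in goat (SE; edgeR, adjusted p = 1.83e-06, 9.23e-05 and 5.33e-06). Over the 3 species the log2 fold was 7.48 ± 0.33 (adjusted p = 3.9e-13). Without sheep brain C the sheep value was 8.03.

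CAST, the inhibitor of mu-calpain and m-calpain, was 4.56-fold, 6.62-fold and 5.08-fold higher in muscle of cattle, sheep and goat. Cattle muscle had 63.4, 51.2 and 56.2 CPM per kb, against 13.1, 11.6 and 12.2 in cattle brain. Sheep muscle had 34.7, 45.2 and 51.0, against 7.65, 8.07 and 4.77 in sheep brain, and goat muscle had 62.0, 67.5 and 34.5, against 12.3, 10.6 and 8.74 in goat brain. No muscle library overlapped a brain library, even though goat muscle C and sheep brain C were the lowest of their groups. The log2 fold was 2.19 ± 0.15 in cattle, 2.73 ± 0.35 in sheep and 2.34 ± 0.33 in goat (SE; edgeR, adjusted p = 3.38e-06, 0.00096 and 0.000275), and 2.42 ± 0.17 over the 3 species (adjusted p = 2.14e-10). It was 2.51 in sheep without sheep brain C and 2.65 in goat without goat muscle C.

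**Figure D2:**
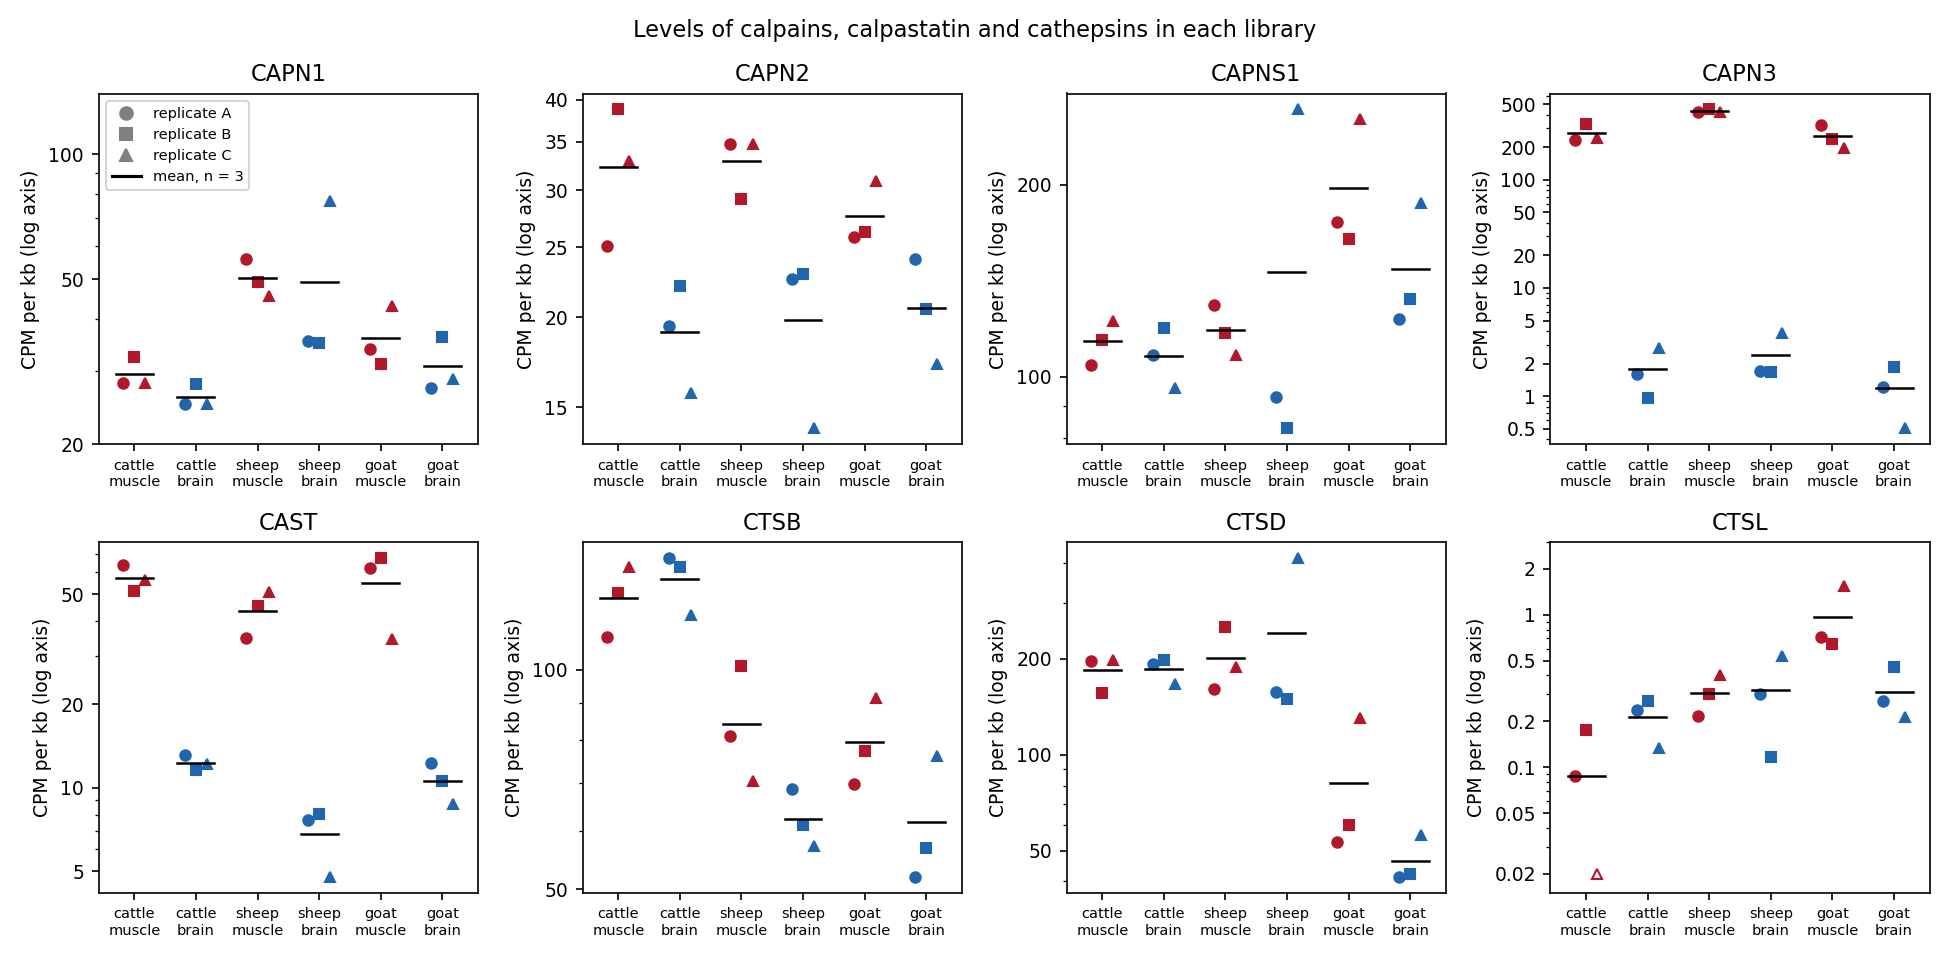
Level of each member in each of the 18 libraries (y axis, CPM per kb on a log axis) for cattle, sheep and goat, with muscle in red and brain in blue. Marker shapes give the replicate letter, lines give the group mean of 3 libraries, and the open triangle stands for cattle muscle C, where CTSL had 0 counts. Muscle and brain are separate in each species in CAPN3 and CAST and, on these TMM-scaled levels, in CAPN2. Sheep brain C is high in CAPN1 (77.2), CAPNS1 (263) and CTSD (415).

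CTSB, a cysteine protease with both endopeptidase and peptidyl-dipeptidase activity, was abundant in both tissues. It averaged 125 ± 13.9 CPM per kb in cattle muscle and 133 ± 12.6 in cattle brain (SD, n = 3 each). The means were 84.2 ± 15.7 in sheep muscle and 62.3 ± 5.67 in sheep brain, and 79.5 ± 11.1 in goat muscle and 61.7 ± 12.8 in goat brain. Its log2 fold, muscle over brain, was -0.11 ± 0.16 in cattle, 0.49 ± 0.27 in sheep and 0.30 ± 0.24 in goat (SE; edgeR, adjusted p = 0.531, 0.165 and 0.302). The groups overlapped in cattle and goat, and in sheep every muscle library (70.3 to 101) lay above every brain library (57.3 to 68.5).

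CTSD, the aspartic protease of the lysosome, was the highest of the 8 in cattle and sheep brain. Cattle muscle had 196, 157 and 199 CPM per kb, against 193, 199 and 167 in cattle brain. Sheep muscle had 161, 252 and 189, against 157, 149 and 415 in sheep brain, and goat muscle had 53.1, 60.3 and 130, against 41.4, 42.3 and 56.0 in goat brain. Sheep brain C and goat muscle C were each more than 2-fold above the other libraries of their group, and with all libraries muscle and brain overlapped in each species. The log2 fold was -0.05 ± 0.17 in cattle, -0.18 ± 0.45 in sheep and 0.71 ± 0.34 in goat (SE; edgeR, adjusted p = 0.816, 0.753 and 0.0943). Without sheep brain C the sheep value was 0.42 ± 0.21 (adjusted p = 0.099), and sheep muscle then lay above sheep brain without overlap. Without goat muscle C the goat value was 0.31. The cattle value turned to 0.02 with upper-quartile scaling. Without goat muscle A the goat value became a call (log2 fold 1.03).

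The gene annotated as CTSL was barely detected. It had 4, 10 and 0 counts in cattle muscle libraries A, B and C, against 24, 20 and 11 in cattle brain. Sheep muscle had 11, 16 and 20 counts, against 18, 8 and 29 in sheep brain, and goat muscle had 27, 25 and 45 counts, against 20, 24 and 16 in goat brain. The 0 in cattle muscle C allows a level of up to 0.0582 CPM per kb, taking 3 counts as the limit and covering counting error only. As levels, goat muscle had 0.719, 0.641 and 1.54 CPM per kb, against 0.270, 0.454 and 0.214 in goat brain, without overlap. The goat log2 fold was 1.55 ± 0.51 (SE; edgeR, adjusted p = 0.0267). That call was lost without goat muscle C (1.16), without goat brain A (1.44), without goat brain C (1.33) and with library totals alone (0.78). Log2 folds of -1.26 ± 0.80 in cattle and 0.03 ± 0.61 in sheep did not pass (adjusted p = 0.182 and 0.977).

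The abundant cathepsin of this kind in these files is a second gene on cattle chromosome 8, which RefSeq names CTSV and lists with CTSL, CTSL1 and CTSL2 as synonyms. It spans chr8:83553382-83558696 on the minus strand, and 4 exon lengths, of 123, 147, 225 and 118 bases, recur in the same order in both models. These models have 9 exons (CTSL) and 8 (CTSV). CAPN2 and CTSB, with 25 and 10 exons, also shared 4 lengths in order, so the count alone does not show kinship. CTSV had 1046 to 2623 counts per library. Cattle muscle had 37.8, 29.1 and 36.7 CPM per kb, against 12.1, 13.1 and 13.6 in cattle brain. Sheep muscle had 46.6, 52.3 and 57.7, against 19.8, 23.5 and 21.3 in sheep brain, and goat muscle had 11.8, 12.9 and 21.2, against 7.62, 8.39 and 6.63 in goat brain. CTSV was higher in muscle over the 3 species, without overlap in any of them, with a log2 fold of 1.24 ± 0.14 (SE; edgeR, adjusted p = 2.62e-07). In goat alone it was under 2-fold (0.95 ± 0.26), and with library totals alone the value over the 3 species was 0.43, which is no call. How reads that match both genes were counted is not given in the sources used here, so the division of reads between CTSL and CTSV is uncertain.

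The order of levels per kb differed between the tissues. In cattle muscle CAPN3 (271 ± 52.8, SD, n = 3) came first, then CTSD (184 ± 23.5), CTSB (125 ± 13.9), CAPNS1 (114 ± 8.86), CAST (57.0 ± 6.13), CAPN2 (32.3 ± 6.89), CAPN1 (29.5 ± 2.49) and CTSL (0.0877 ± 0.0876). CTSB overlapped CAPNS1 there and CAPN2 overlapped CAPN1, and the other neighbours were separate. In sheep muscle CAPN3 (430 ± 14.6) was followed by CTSD (201 ± 46.4), CAPNS1, CTSB, CAPN1 (50.2 ± 5.16), CAST (43.6 ± 8.23), CAPN2 (32.9 ± 3.23) and CTSL. Only CAST overlapped its neighbours in that order, CAPN1 above it and CAPN2 below it. In goat muscle the order was CAPN3 (254 ± 63.8), CAPNS1 (198 ± 48.9), CTSD (81.2 ± 42.7), CTSB, CAST (54.7 ± 17.7), CAPN1 (36.0 ± 6.16), CAPN2 (27.7 ± 2.81) and CTSL. CAPN3 overlapped CAPNS1 there, CTSD overlapped CTSB, and CAST overlapped CAPN1. The goat models of CTSD and CAPNS1 sum to 5879 and 955 bases. In CPM not divided by length, CTSD (312, 355 and 766) lay above CAPNS1 (167, 157 and 242) in goat muscle A, B and C.

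In the brain of each species the lower end of the order per kb was the same and free of overlap between neighbours. CAPN1 came above CAPN2, then CAST, CAPN3 and CTSL. In cattle brain these were 25.9 ± 1.70, 19.1 ± 3.21, 12.3 ± 0.772, 1.79 ± 0.928 and 0.214 ± 0.0709 CPM per kb (SD, n = 3). At the upper end, CTSD (186 ± 16.8) led CTSB (133 ± 12.6) and CAPNS1 (108 ± 11.5) in cattle brain, where CTSB and CAPNS1 met at their edges. CTSD (241 ± 151) and CAPNS1 (146 ± 101) overlapped in sheep brain, and so did CTSB (62.3 ± 5.67) and CAPN1 (49.2 ± 24.2). CAPNS1 (148 ± 34.6) led in goat brain per kb, followed by CTSB (61.7 ± 12.8) and CTSD (46.5 ± 8.20), which overlapped. In CPM not divided by length, CTSD (243, 248 and 329) lay above CAPNS1 (118, 127 and 179) in goat brain A, B and C. Per kb, CAST thus came below both large subunits in every brain group, and above CAPN2 in every muscle group by its mean. For cattle brain this depended on length. In CPM not divided by length, CAST (79.7 and 74.0) lay above CAPN1 (73.3 and 73.4) and CAPN2 (67.0 and 54.1) in cattle brain A and C.

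The balance of calpastatin to mu-calpain transcripts was taken as the ratio of CAST to CAPN1 counts per kb in each library, in which the scaling of a library cancels. The ratio was 4.70-fold higher in muscle than in brain over the 3 species. Cattle muscle had ratios of 2.26, 1.58 and 2.0, against 0.525, 0.414 and 0.487 in cattle brain. Sheep muscle had 0.623, 0.920 and 1.12, against 0.216, 0.231 and 0.0618 in sheep brain, and goat muscle had 1.83, 2.16 and 0.802, against 0.449, 0.291 and 0.304 in goat brain. In each species every muscle library lay above every brain library. Division by length cannot change that order, since the libraries of a species share the same gene models. Across species the separation holds per kb only: with counts not divided by length, sheep muscle A (0.725) and goat muscle C (0.642) lay below all cattle brain libraries (0.857 to 1.09).

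The mean log2 difference of the ratio, muscle minus brain, was 2.23 (exact permutation test within species, two-sided, p = 0.00025, the smallest that 8000 assignments can give). It was 2.03 in cattle, 2.57 in sheep and 2.11 in goat, each at p = 0.1 in the exact test, which is the smallest that 3 against 3 libraries allow. Without sheep brain C and goat muscle C the difference over the 3 species was 2.17 (exact permutation p = 0.0005). With CAPN1 and CAPN2 together in the denominator it was 2.06. CAPN1 did not pass the test between tissues and CAST did, as given above, so the ratio restates the CAST values against a CAPN1 level that differed little.

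**Figure D3:**
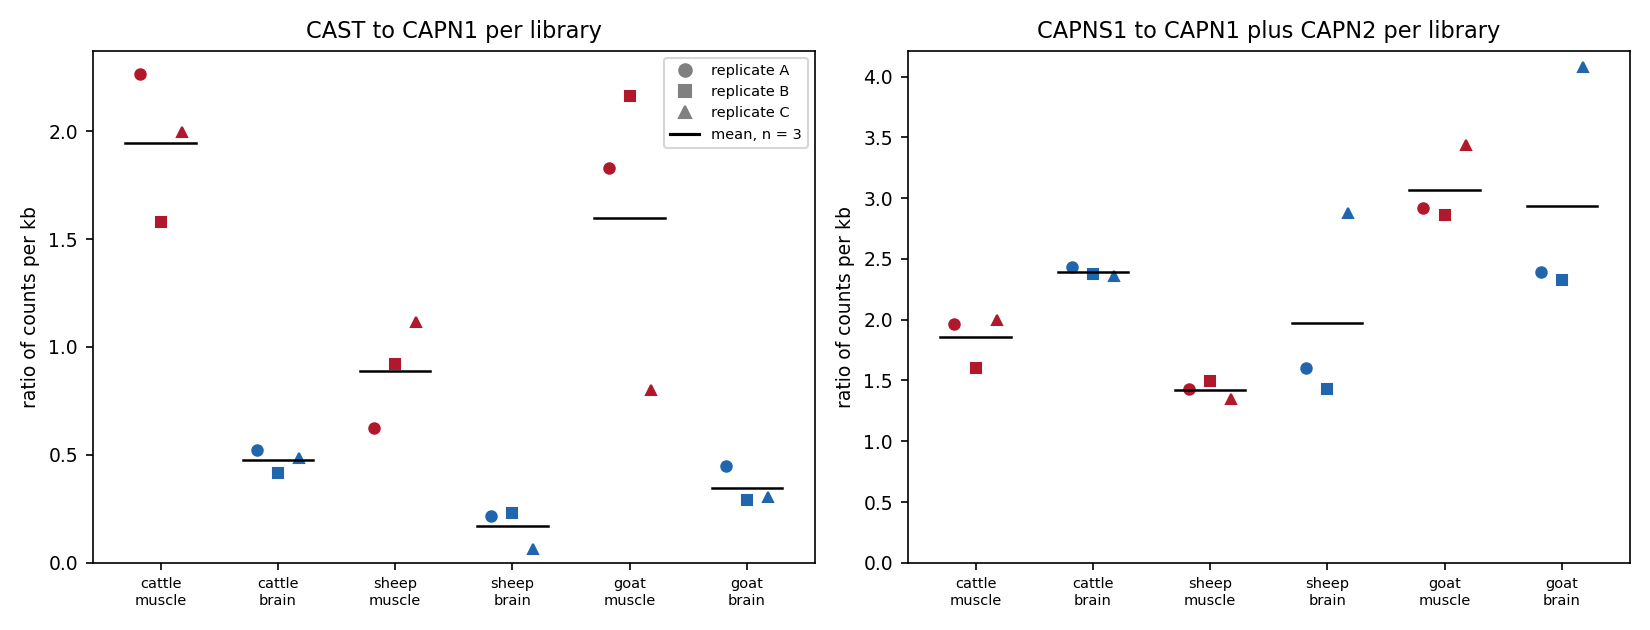
Ratio of CAST to CAPN1 (left) and of CAPNS1 to CAPN1 plus CAPN2 (right), each from counts per kb in 1 library (y axes, linear, no unit), with muscle in red and brain in blue. Marker shapes give the replicate letter and lines the group mean of 3 libraries. Per kb, the muscle ratios of CAST to CAPN1 (0.623 to 2.26) lie above the brain ratios (0.0618 to 0.525), a separation that holds within each species but not across species without division by length, while the CAPNS1 ratios of the tissues overlap.

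Between species, the same ratio depended on gene models of unequal length. The mean ratio was 1.95 ± 0.344 in cattle muscle, 0.886 ± 0.249 in sheep muscle and 1.60 ± 0.709 in goat muscle (SD, n = 3 each). In brain it was 0.475 ± 0.0562 in cattle, 0.169 ± 0.0934 in sheep and 0.348 ± 0.0875 in goat. Species accounted for 55.5% of the sum of squares of the log2 ratio in muscle (exact permutation p = 0.107, BH adjusted over the 2 tissues 0.107) and 64.2% in brain (exact permutation p = 0.00714, adjusted 0.0143). Without goat muscle C the muscle share was 82.9% (exact permutation p = 0.0393), and without cattle brain A the brain share was 59.9% (exact permutation p = 0.0536). With counts not divided by length, the cattle ratios were 4.03 ± 0.711 in muscle and 0.984 ± 0.116 in brain, and the muscle share was 80.9% (exact permutation p = 0.025).

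The small subunit was also set against the large subunits it pairs with. The ratio of CAPNS1 to CAPN1 plus CAPN2 per kb was 1.97, 1.60 and 2.0 in cattle muscle, against 2.44, 2.38 and 2.36 in cattle brain. It was 1.43, 1.5 and 1.34 in sheep muscle, against 1.60, 1.43 and 2.88 in sheep brain, and 2.92, 2.86 and 3.43 in goat muscle, against 2.40, 2.33 and 4.08 in goat brain. Cattle muscle lay below cattle brain without overlap, while the sheep and goat groups overlapped. Over the 3 species the log2 difference, muscle minus brain, was -0.22 (exact permutation test within species, two-sided, p = 0.163).

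Whether the tissue difference of a member differed between species was tested by the interaction of species with tissue. Of the 8 members, 0 were called in edgeR's joint test, beside 24.4% of all 12052 genes, and 1 (CTSL) had an unadjusted p under 0.05. DESeq2 called CTSL and limma-voom called 0. By pair, 0 members were called for cattle minus sheep, cattle minus goat and sheep minus goat, beside 19.8%, 13% and 7.19% of all genes. The unadjusted counts were 0, 1 and 0. By pair, DESeq2 called 0, 1 and 0 members, and limma-voom 0 in each. For CTSL, cattle minus goat, the value was -2.87 ± 1.04 on the log2 scale (SE; edgeR, adjusted p = 0.0786), with adjusted p = 0.0397 without sheep brain C and 0.0424 without cattle muscle B, in fits that pool the spread over all groups. For CAST the interaction values were -0.46 ± 0.38 for cattle minus sheep, -0.16 ± 0.38 for cattle minus goat and 0.30 ± 0.38 for sheep minus goat (edgeR, adjusted p = 0.418, 0.846 and 0.643), and an interval of about 2 standard errors around each holds 0.

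Levels were also compared between species within a tissue, with exonic length as an offset. In muscle, 0 of 8 members were called for cattle over sheep in edgeR, beside 29.3% of all genes, with 3 at an unadjusted p under 0.05. DESeq2 called 0 and limma-voom 1 (CTSL). For cattle over goat 2 of 8 were called in muscle (33.3% of all genes) and 2 in brain (22.4%). For sheep over goat 1 was called in muscle (22.5%) and 1 in brain (17.7%), and for cattle over sheep 1 was called in brain (25.4%).

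CTSB was higher in cattle brain than in the brain of both small ruminants. Cattle brain had 142, 138 and 119 CPM per kb, against 68.5, 61.1 and 57.3 in sheep brain and 52.0, 57.0 and 76.2 in goat brain, with no overlap. The log2 fold was 1.10 ± 0.22 for cattle over sheep and 1.11 ± 0.22 for cattle over goat (SE; edgeR, adjusted p = 0.00139 and 0.00117). Both calls were lost with library totals alone (0.31 and 0.50), and the call over goat was lost without goat brain A (0.998). In muscle the values were 0.58 ± 0.21 over sheep and 0.66 ± 0.22 over goat (edgeR, adjusted p = 0.0462 and 0.0218), under 2-fold. The summed level of 4 oligodendrocyte markers was 734 to 1159 CPM per kb in cattle brain, 1410 to 1473 in sheep brain and 4660 to 29129 in goat brain, highest in goat brain A. In the same order, 3 macrophage and microglia markers summed to 35.9 to 70.0, 47.7 to 56.1 and 24.0 to 64.4. The neuron markers summed to 1969 to 2176, 1214 to 2380 and 1578 to 2534. The astrocyte markers summed to 1669 to 2435, 2655 to 3019 and 1121 to 2763. The part of cell makeup in the CTSB difference was not tested.

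CTSD gave the calls that depended most on gene length. Per length it was higher in cattle than in goat, with log2 folds of 1.18 ± 0.39 in muscle and 2.0 ± 0.40 in brain (SE; edgeR, adjusted p = 0.0223 and 0.00132). It was likewise higher in sheep than in goat, by 1.31 ± 0.39 in muscle and 2.37 ± 0.40 in brain (edgeR, adjusted p = 0.019 and 0.000515). Without the length offset these values were -0.60, 0.21, -0.48 and 0.57, none of them called. The goat model of CTSD is 5879 bases long, against 2043 in cattle. In muscle the call over goat for cattle was also lost without cattle muscle A (1.13), cattle muscle C (1.12), goat muscle A (0.95) or goat muscle B (1.01), and with library totals alone (0.74). The muscle call for sheep over goat was lost without sheep muscle B (1.11), goat muscle A (1.08) or goat muscle B (1.13).

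CTSL was lower in cattle muscle than in goat muscle, at 0.0880, 0.175 and 0 CPM per kb, against 0.719, 0.641 and 1.54. The fitted log2 fold was -3.40 ± 0.78 (SE; edgeR, adjusted p = 0.00252) on 14 counts in all cattle muscle libraries together. CAPN1 passed the adjusted p but not 2-fold for cattle over sheep, with -0.76 ± 0.27 in muscle and -0.92 ± 0.27 in brain (edgeR, adjusted p = 0.0378 and 0.0175). The CAPN1 value in brain was -0.44 without sheep brain C (adjusted p = 0.0799) and became a call without sheep brain A (-1.11), without sheep brain B (-1.12) and with no length offset (-1.12). With library totals alone CAPN1 was called in muscle (-1.33) and in brain (-1.63). CAST had 0.39 ± 0.27 in muscle and 0.84 ± 0.27 in brain for cattle over sheep (edgeR, adjusted p = 0.287 and 0.026). Without the length offset CAST became a call in both tissues for cattle over sheep (1.01 and 1.48) and in brain for cattle over goat (1.06).

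CAPN3 was not called between species in the main fit, in which length was corrected. Its log2 fold in muscle was -0.67 ± 0.43 for cattle over sheep and 0.76 ± 0.44 for sheep over goat (SE; edgeR, adjusted p = 0.253 and 0.216). Without the length offset both were called (-1.35 and 1.35), and with library totals alone cattle over sheep was called (-1.25). In brain, sheep over goat was 1.01 ± 0.45 (edgeR, adjusted p = 0.121), and it was called without the length offset (1.60). The summed level of 7 slow fibre markers was 14232 to 48836 CPM per kb in cattle muscle, 5888 to 8935 in sheep muscle and 16623 to 36076 in goat muscle. That of the 5 fast fibre markers matched, of 9 listed, was 23606 to 48249 in cattle muscle, 50165 to 62164 in sheep muscle and 45000 to 119973 in goat muscle. Goat muscle C had the lowest slow sum, the highest fast sum and the lowest CAPN3 level of the goat muscle libraries, while the sheep libraries had the lowest slow sums and the highest CAPN3 levels of the 3 species. The part of fibre makeup in CAPN3 was not tested. For CAPN2 the values between species ran from -0.11 to 0.25, none of them called. CAPNS1, with models of 2335, 1406 and 955 bases in cattle, sheep and goat, had values of -0.80 to -0.02, none called. With library totals alone CAPNS1 was called for cattle over goat in muscle (-1.28) and brain (-1.07), and for cattle over sheep in brain (-1.12). Over all settings its value for cattle over goat in muscle ran from -1.28 to 0.23.

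**Figure D4:**
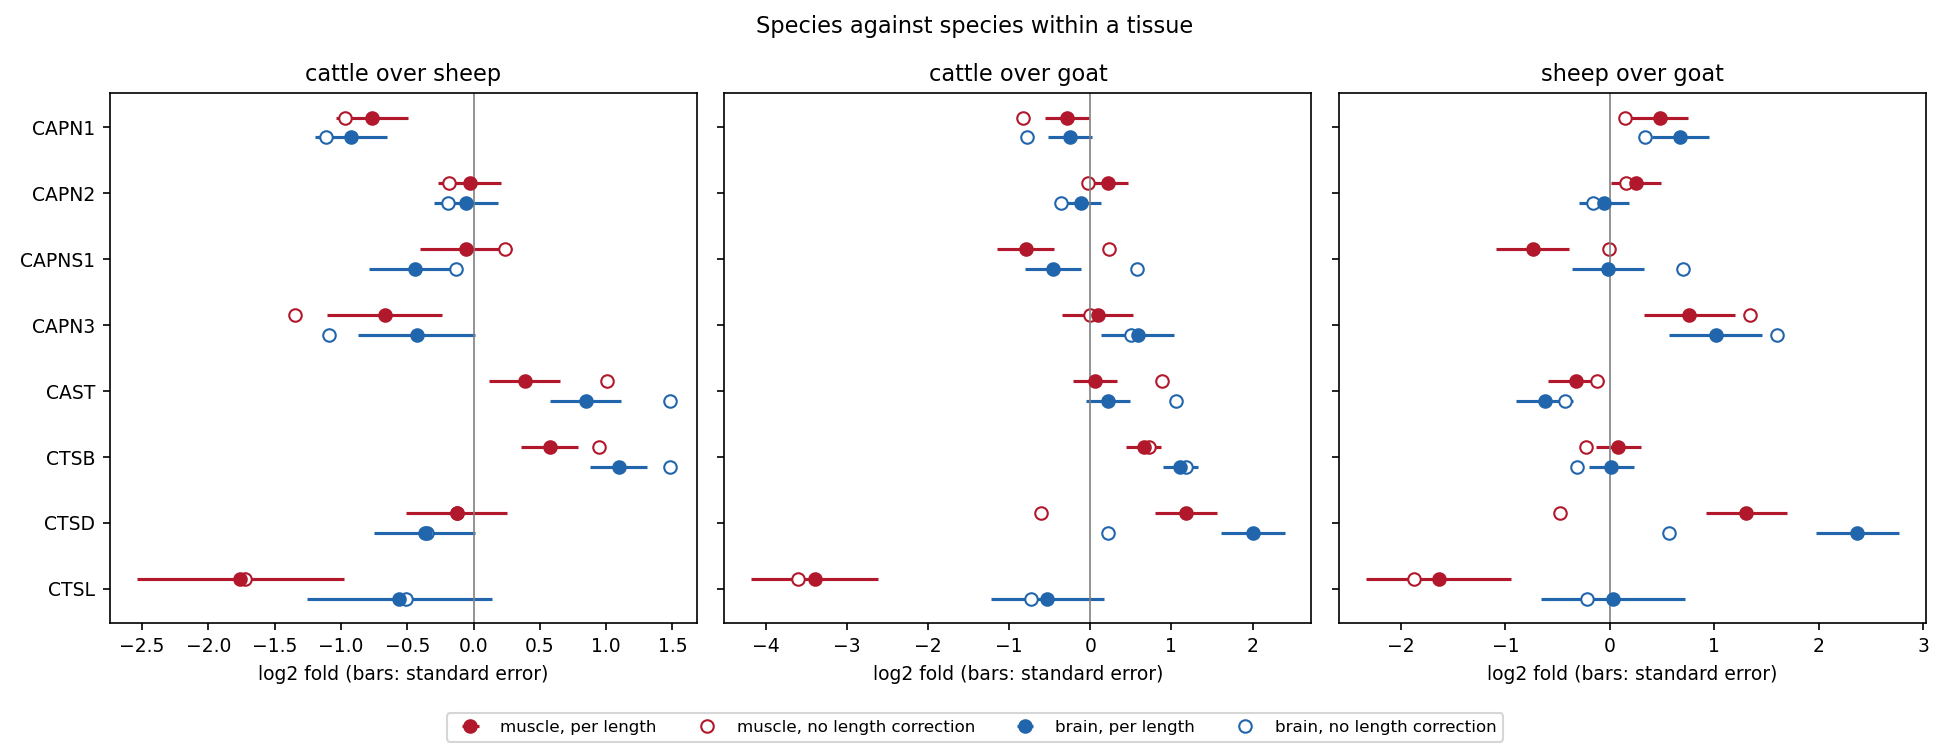
Log2 folds between species within a tissue for the 8 members (x axes, log2 units), with muscle in red above brain in blue. Filled points are edgeR values per length with standard errors as bars, and open points are values with no length correction. The filled and open points of CTSD lie far apart in both contrasts with goat (2.0 and 0.21 in brain for cattle over goat), while those of CTSB in brain stay to the right of 0 for cattle over sheep and over goat.

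Libraries that stood apart moved the members unequally. In sheep brain C, CAPNS1 was 1.58, CTSD 1.44, CAPN3 1.2 and CAPN1 1.13 above the mean of the other sheep brain libraries on the log2 scale, and CAST (-0.72), CAPN2 (-0.70) and CTSB (-0.17) were below it. In goat muscle C, CTSD (1.2), CAPNS1 (0.58), CAPN1 (0.40), CTSB (0.32) and CAPN2 (0.25) were above the other goat muscle libraries. CAST (-0.91) and CAPN3 (-0.49) were below them. Of all genes, 36.2% deviated lower than CAST in sheep brain C and 14.6% in goat muscle C. CAST has the longest locus of the 8, and the loci of CAPNS1, CTSD and CTSL are the shortest. CAPN2 and CAPN3 lie between in locus length and moved in opposite directions in each of these libraries. The part of locus length in these deviations was not tested for single members.

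The other calpains that could be followed were 7 of 13 listed, and 2 were higher and 4 lower in muscle over the 3 species, with a median log2 fold of -1.46 beside -0.10 for all genes. CAPN6, a calpain that lacks the active-site cysteine, was higher in muscle with a log2 fold of 4.58 ± 0.43 (SE; edgeR, adjusted p = 1.53e-08). It had 4.66, 21.3 and 9.43 CPM per kb in cattle muscle, 13.04 to 15.4 in sheep muscle and 8.23 to 10.4 in goat muscle, against 0.121 to 0.970 in the brain libraries. CAPN7 was higher over the 3 species (1.45 ± 0.35, edgeR, adjusted p = 0.00126), with 2.28 ± 0.25 in cattle and 1.85 ± 0.49 in goat but 0.05 ± 0.28 in sheep. With library totals alone the value over the 3 species was 0.60 and CAPN7 was not called. CAPN5 (-1.46 ± 0.23) and CAPN10 (-1.53 ± 0.26) were lower in muscle. CAPN5 was not called in sheep (-0.57 ± 0.33, edgeR, adjusted p = 0.187), and CAPN10 was under 2-fold in cattle (-0.86 ± 0.18). CAPN8 (-1.76 ± 0.70) and CAPN12 (-1.80 ± 0.52) were called lower on few reads, with 0 to 11 and 0 to 4 counts per muscle library and 2 to 40 and 1 to 40 counts per brain library. In cattle CAPN8 averaged 0.0474 ± 0.0438 CPM per kb in muscle and 0.0332 ± 0.0199 in brain (SD, n = 3 each). CAPN15 (0.04 ± 0.17) was not called and was negative with library totals alone.

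Of the other cathepsins, 10 of 12 listed were tested, and 4 were higher and 1 lower in muscle, counts that became 1 and 4 with library totals alone. Higher were CTSW (2.69 ± 0.36), a protease known from cytotoxic lymphocytes, CTSC (1.49 ± 0.38), which activates serine proteases of immune cells, CTSK (1.47 ± 0.27), the collagen-degrading protease of osteoclasts, and CTSV (SE; edgeR, adjusted p = 2.04e-06, 0.00181, 7.45e-05 and 2.62e-07). CTSF, a cysteine cathepsin, was lower (-1.13 ± 0.20, edgeR, adjusted p = 5.27e-05). CTSS (-0.81 ± 0.23), CTSZ (-0.56 ± 0.20) and CTSA (-0.54 ± 0.16) passed the adjusted p but not 2-fold, and CTSH (0.49 ± 0.23) and CTSO (-0.04 ± 0.29) did not pass. CTSH turned negative with library totals alone. CTSC was called in sheep (2.88 ± 0.54) and goat (1.48 ± 0.42), while its cattle value was 0.11 ± 0.28. CTSK was called in cattle alone (2.48 ± 0.24). It had 1.01 ± 0.42 in sheep and 0.89 ± 0.30 in goat (edgeR, adjusted p = 0.0836 and 0.0275), and 0.65 over the 3 species with library totals alone, no call. CTSF was under 2-fold in goat (-0.65 ± 0.23). The summed level of 3 macrophage and microglia markers that were matched, of 9 listed, was 6.77 to 21.9 CPM per kb in muscle and 24.0 to 70.0 in brain. The markers did not move together: CSF1R was lower in muscle (-3.29 ± 0.25), CD163 was higher (2.27 ± 0.30), and CD68 was not called (0.36 ± 0.32, negative with library totals alone) (SE; edgeR, adjusted p = 8.31e-10, 2.03e-06 and 0.33). The part of immune cells in the cathepsin values was not tested.

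**Figure D5:**
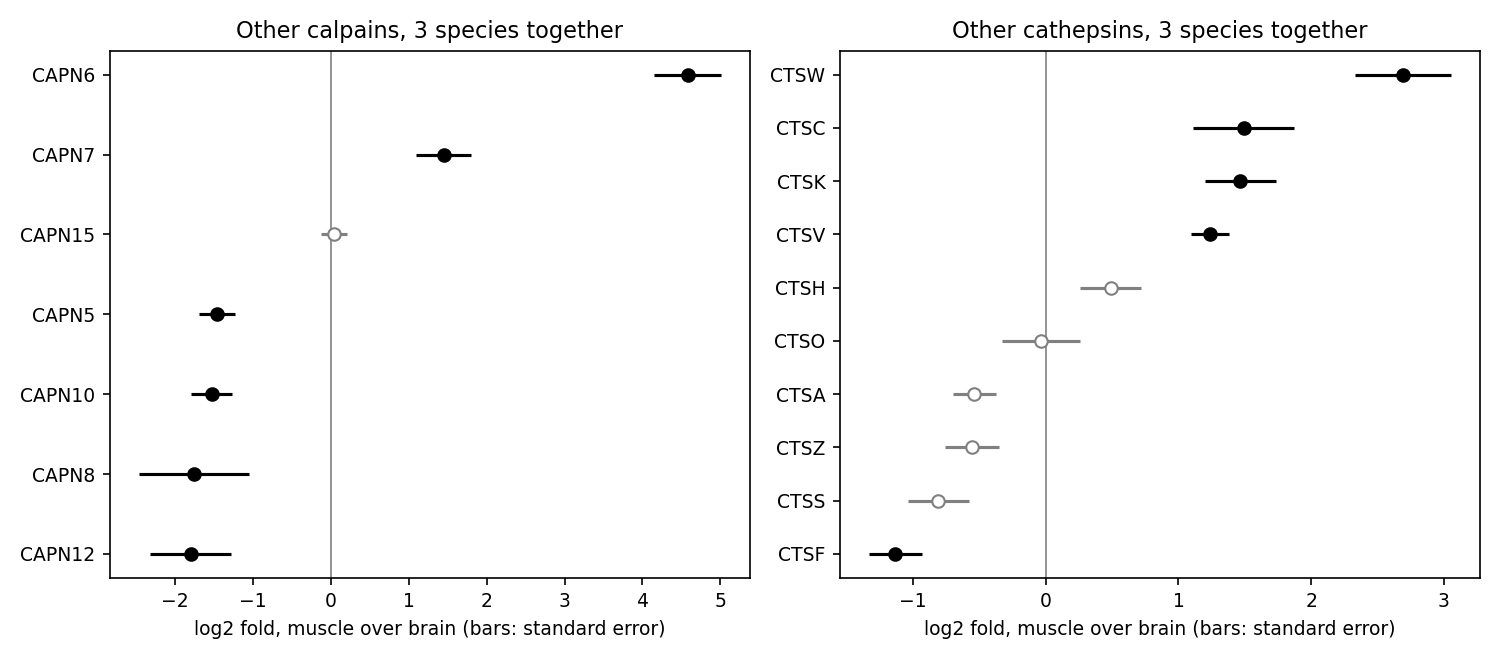
Log2 fold, muscle over brain, over the 3 species (x axes, log2 units) for 7 other calpains (left) and 10 other cathepsins (right). Filled black points were called, open grey points were not, and bars are standard errors. CAPN6 (4.58) and CTSW (2.69) lie farthest to the right, and CAPN12 (-1.80) and CTSF (-1.13) farthest to the left.

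Structural proteins that calpains are known to cut were examined beside the proteases. Of 8 tested, 6 were higher and 1 lower in muscle, with a median log2 fold of 7.37. NEB, the thin filament ruler nebulin, had 10.16 ± 0.32, DES, the intermediate filament desmin, 9.21 ± 0.38, and FLNC, the muscle filamin, 8.30 ± 0.36 (SE; edgeR, adjusted p = 6.45e-15, 1.57e-13 and 2.7e-13). SPTAN1, the non-erythroid alpha spectrin whose calpain fragments are a common sign of neuronal injury, was the gene that was lower (-2.97 ± 0.17, edgeR, adjusted p = 9.06e-12).

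Among 17 genes of lysosome membranes, enzymes and sorting, 3 were higher and 5 lower in muscle, and 2 and 9 with library totals alone. GAA, the acid glucosidase lost in Pompe disease, was higher (1.84 ± 0.16), and ATP6V1H (-2.55 ± 0.15) and ATP6AP1 (-1.81 ± 0.17), parts of the proton pump, were lower (SE; edgeR, adjusted p = 5.82e-09, 1.3e-11 and 2.25e-08). Of 8 genes of other protease systems, 5 were higher and 1 lower: TRIM63, a muscle ubiquitin ligase, had 10.46 ± 0.44 and PSMA1, a proteasome subunit, 1.94 ± 0.17. Both inhibitors of cysteine or serine proteases that could be matched, of 8 listed, were tested: CST6, a cystatin, was higher (1.43 ± 0.42, edgeR, adjusted p = 0.00507, not called with library totals alone), and SERPINB1 (0.58 ± 0.31) did not pass.

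Across the 18 libraries the members fell into unlike patterns, given here as a description in which the tissues and species dominate. CAPN3 and CAST followed each other on the log2 scale (r = 0.92), and CAPN2 followed both (r = 0.78 with each). CAPN1 was unrelated to CAST (r = -0.06), and CTSB ran against CAPN1 (r = -0.44). Among 8713 other matched genes with a symbol, those most like CAPN3 were CASQ1, which binds calcium in the sarcoplasmic reticulum (r = 0.99), and MYLK2, the skeletal myosin light chain kinase (r = 0.99). Those most like CAST were ALKBH8 (r = 0.98) and SYNC (r = 0.98), an intermediate filament protein of muscle. For the other members the most similar genes were PAXIP1 (0.94) and NFATC4 (0.94) for CAPN1, STK10 (0.94) and WWTR1 (0.93) for CAPN2, BABAM1 (0.93) and GTF2H4 (0.92) for CAPNS1, SMOC2 (0.93) and THBS2 (0.88) for CTSB, and KRTCAP2 (0.96) and TIMM50 (0.95) for CTSD. CTSL, with few counts, was most like PIGU (0.84) and AHSA2 (0.82).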

How the data were processed

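The deposited values are raw read counts per gene and library, made by the authors on the Ensembl gene models of each species. The submitters' processing notes name Trimmomatic 0.39, STAR 2.7.6 and featureCounts, and ARS-UCD1.2 as the only build. For sheep and goat the build, and for all libraries the strandedness and the treatment of multi-mapping reads, were not stated in the sources used here. Reads that overlap another gene or match a related gene could therefore have been counted differently.

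Cattle genes were named from RefSeq positions of a later assembly (ARS-UCD2.0) where both spans shared at least 0.5 of their joint length, which named 20139 genes. Sheep and goat partners shared at least 2 pairs of neighbouring exon lengths (9501 genes) or, between matched neighbours, at least 1 exon length (3597 genes). All 8 members came from the stricter step.

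Counts were filtered with filterByExpr, scaled by TMM on length-corrected counts and fitted with edgeR 4.0.16 (quasi-likelihood, robust) in R 4.3.3, with BH adjustment over all genes tested. Muscle was set against brain within species, and over 18 libraries with species as a term. Species and interactions were fitted on 6 group means with exonic length as an offset. Alternatives were other scalings, no filter, DESeq2 1.42.0, limma-voom 3.58.1, no minimum fold, a replicate block, first-pass matches, no length offset and each library left out. The depth gives most members 55 counts or more per library, so the spread between libraries sets their precision; CTSL is the exception. The fits were tested on simulated data.

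All members were named, with all other calpains and cathepsins tested and up to 3 genes of lowest adjusted p per further list, of which up to 1 called against the list's median. SPTAN1 was named after its value was seen. A further gene that met this rule is not reported here. The members and lists were chosen with earlier results of these data known.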

Additional observations from a re-analysis of the deposited data

How the results depend on the processing

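CAPN3 and CAST stayed called as higher in muscle in each species and over all 3 under every alternative run, with log2 folds of 6.71 to 7.67 and 1.63 to 2.49 over the 3 species. Of 2672 member values under alternatives, 2617 kept their side of the call, 19 lost it, 34 gained it and 2 called values changed sign; changes of sign between uncalled values are not among these. The 2 are CTSD in muscle with no length offset, at -0.60 for cattle over goat and -0.48 for sheep over goat. Among the 2672 values are fits that left out a library outside the contrast, which bears on it only through shared scaling, filtering and spread. The number kept is therefore not by itself a measure of stability.

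Counts of members called in muscle for cattle over sheep (main value 0) were 2 with no minimum fold, 3 with library totals alone, 1 with limma-voom, 2 with no length offset and 1 without both libraries that stand apart. In brain for cattle over sheep (main value 1) they were 3 with no minimum fold, with library totals alone and with no length offset. In muscle for cattle over goat (2) the count was 1 with no length offset, and for sheep over goat (1) it was 2 with DESeq2. DESeq2 gave 1 member in the joint interaction and 1 for cattle minus goat (0 and 0). The main fit called 29.3%, 25.4%, 33.3% and 22.5% of all genes in these species contrasts, in the order named. For the interactions it called 24.4% (joint) and 13% (cattle minus goat). Counts over all genes changed with the setting as well, as given below. These member counts are therefore no result about the members alone.

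Counts over all genes moved by more than 1.5 times as follows. Brain, cattle over sheep, gave 3058 genes and 4891 with library totals alone. First-pass matches, which test fewer genes, gave 1766 genes in brain for cattle over goat (2694), 1756 in muscle for sheep over goat (2714) and 541 in the interaction of sheep minus goat (866), which DESeq2 put at 1636. Without both libraries that stand apart the interaction of cattle minus goat gave 2710 genes (1565). The causes of the other moves were not tested.

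The replicate block gave 977 genes in the interaction of cattle minus goat, 303 for sheep minus goat and 1814 in the joint test (1565, 866 and 2938), and ended the call of CTSL in goat (log2 fold 1.52). Deviations of muscle and brain libraries of a letter correlated at -0.205 to 0.197, so the letters were not taken to pair them. For the ratio of CAST to CAPN1 the replicate block left the difference at 2.23, higher in 9 of 9 letter pairs (exact sign-change p = 0.00391). For CAPNS1 to CAPN1 plus CAPN2 it left -0.22 (exact p = 0.172), a test added after seeing the data.

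Leaving out each library in turn gave 2 to 4 members called in goat, muscle over brain, beside 8056 to 9090 of all genes. Between species the counts of members ran from 0 to 1 (cattle over sheep), 1 to 2 (cattle over goat) and 0 to 2 (sheep over goat) in muscle, and in brain from 1 to 2 for cattle over sheep and 1 to 2 for cattle over goat. Counts of all genes ran from 2917 to 4025, 3502 to 4476 and 2173 to 3196 in these muscle contrasts. In the brain contrasts they ran from 2238 to 3471 and 2153 to 3226. Interactions gave 1050 to 2639 genes and 0 to 1 members for cattle minus goat, and 459 to 1297 genes for sheep minus goat. Species took 43.3% to 82.9% of the sum of squares of the ratio in muscle and 59.9% to 82.4% in brain. The muscle share was 80.9% with no length correction and 82.9% without both libraries that stand apart. Depth limits CTSL alone among the members, at 0 to 45 counts per library.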
